A study of Mus musculus with 4 samples.

Results

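The villus antimicrobial and barrier defence genes are 10 genes of mouse intestinal epithelium: the secreted lectins Reg1, Reg3a, Reg3b and Reg3g, the antibody carrier Pigr, the nitric oxide synthase Nos2, the acute phase protein Saa1, the inflammasome genes Nlrp6 and Il18, and the chemokine Ccl25. They were listed by name for their known roles, with earlier results of these data known, and all 10 were measured, among 12393 genes. Each gene was read from the probe set with the highest mean, taking only probe sets that the platform annotation gives to exactly 1 symbol. The 10 genes had 13 such probe sets, since Reg3b, Pigr and Saa1 had 2 each.

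RNA came from proximal intestinal epithelium of C57BL/6 mice aged 4 to 6 weeks and was hybridised to 4 Affymetrix arrays. The stem group held Lgr5(hi) cells, the stem cells of the crypt base, isolated from wild type mice by fluorescence sorting (2 arrays). The enterocyte group held villus cells released with EDTA from mice in which Atoh1, the factor that secretory cells require, had been deleted conditionally in the intestinal epithelium (2 arrays). The labels of both groups list a tamoxifen dose of 1 mg each day, given for 5 days and followed by 5 days of waiting. The sources used here do not name the Cre driver. They call the replicates biological without naming animals, so the p-values below measure the spread between these arrays, which may be technical. The comparison addresses how defence genes differ between stem cells and differentiated absorptive cells. Cell type, genotype and isolation change together and cannot be told apart.

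The small intestine keeps bacteria at a distance with secreted antimicrobial lectins of the Reg family, with IgA that the polymeric immunoglobulin receptor carries from the tissue to the lumen, and with oxidants made at the cell surface. Epithelial inflammasomes are complexes in which a sensor such as Nlrp6 joins the adaptor Pycard and caspase 1, which matures interleukin 18. Along the villus, absorptive cells are known to switch programmes, and genes of bacterial defence have been described at the villus base in mice, with genes of purine breakdown and surface remodelling at the tip. Signals from bacteria and from lymphocytes, among them interleukin 22 acting through STAT3, are known to induce Reg3 genes.

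The Reg genes lie side by side on chromosome 6. In the RefSeq table of assembly GRCm38.p6 their order is Reg3b, Reg3d, Reg3a, Reg2, Reg1, a pseudogene and Reg3g. The 4 promoters of the Reg members are shown because these 4 genes rose in enterocytes, as described further on. Reg3d and Reg2, which lie among them, were dim. Each runs from 250 bases before the gene's start to 50 bases after it (RefSeq, GRCm38.p6), 5′ to 3′ on the gene's strand, with capitals marking matches to a TATA box (TATAAA, gene's strand) and to the STAT motif (TTCNNNGAA, both strands).
Reg3b promoter, chr6:78370635-78370934, plus strand: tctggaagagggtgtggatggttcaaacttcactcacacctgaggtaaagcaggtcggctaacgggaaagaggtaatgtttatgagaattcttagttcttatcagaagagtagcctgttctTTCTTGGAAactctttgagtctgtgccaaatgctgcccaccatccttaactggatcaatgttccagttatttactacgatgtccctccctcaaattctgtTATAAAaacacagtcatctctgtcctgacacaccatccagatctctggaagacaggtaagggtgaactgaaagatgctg
Reg3g promoter, chr6:78468825-78469124, minus strand: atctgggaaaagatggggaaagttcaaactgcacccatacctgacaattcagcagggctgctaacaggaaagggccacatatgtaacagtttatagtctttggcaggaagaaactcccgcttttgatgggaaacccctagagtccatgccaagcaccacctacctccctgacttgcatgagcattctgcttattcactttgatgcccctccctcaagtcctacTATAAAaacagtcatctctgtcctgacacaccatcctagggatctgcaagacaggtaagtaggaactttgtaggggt
Reg3a promoter, chr6:78380459-78380758, plus strand: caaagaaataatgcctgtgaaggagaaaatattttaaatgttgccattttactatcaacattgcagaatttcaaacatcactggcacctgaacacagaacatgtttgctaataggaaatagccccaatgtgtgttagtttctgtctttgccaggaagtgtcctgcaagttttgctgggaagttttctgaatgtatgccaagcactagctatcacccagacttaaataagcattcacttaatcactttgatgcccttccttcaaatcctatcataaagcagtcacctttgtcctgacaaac
Reg1 promoter, chr6:78425733-78426032, plus strand: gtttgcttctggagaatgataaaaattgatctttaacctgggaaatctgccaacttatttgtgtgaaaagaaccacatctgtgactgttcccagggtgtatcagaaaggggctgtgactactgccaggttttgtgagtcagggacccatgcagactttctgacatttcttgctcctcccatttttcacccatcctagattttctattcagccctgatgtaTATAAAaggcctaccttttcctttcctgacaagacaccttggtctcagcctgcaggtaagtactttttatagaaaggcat

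The TATA letters stood at position -29 in Reg3b, -27 in Reg3g and -30 in Reg1, where -1 is the last base before the start, and were not found in the Reg3a window. They occur in 8.32% of the 32851 promoters of the same length. In Reg3a the letters CATAAA lie downstream of the start, after a stretch much like that before the Reg3g TATA box. The Reg3a window is thus offset from that of Reg3g, which can lower its identity in the alignment given below. The STAT letters occurred once among the 4 windows, in Reg3b at position -129, against 8.30% of all promoters. Pigr was the other member with them, at position 40, downstream of its start. The letters GATAAG (bound by zinc finger factors of the gut, both strands, in 7.44% of promoters) matched in Reg3b. TTTATNG (Cdx factors, both strands, in 10.9%) matched in Reg1 and Reg3g, and 1 of the Reg3g matches overlaps its TATA box. CAAAGTCCA (HNF4, in 0.475%) and TTGCGNAA (C/EBP, in 0.798%) matched in 0 of the 4 on either strand. A global alignment gave 68.1% identical columns between the Reg3b and Reg3g promoters, more than for any other pair of the 4 (42.1% to 52.1%). Matching letters are a description of these windows and say nothing on binding. RefSeq promoter sequences were at hand for 9 of the 10 genes, all but Nos2.

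Lgr5 and the markers of stem cells and enterocytes followed the labels. Lgr5 had intensities of 2572 and 1990 on the stem arrays and of 121 and 68.1 on the enterocyte arrays. Atoh1 was at least 2.32-fold lower in enterocytes, which cannot check its deletion, because cell type and genotype change together. In enterocytes it lay below the background level of 82.0. That level is the 90th percentile of the mean of 30 genes of other organs, of which 3 passed the test. All 14 measured enterocyte markers were higher in enterocytes and all 12 stem cell markers lower. Of 17 markers of T and intraepithelial lymphocytes 12 were higher in enterocytes, with summed intensities of 9466 and 12592 against 1125 and 1415. Of 17 markers of macrophages, dendritic cells and granulocytes 3 were higher and 2 lower, and 13 lay below background on all 4 arrays. Among those 13 were all 3 that were higher (Itgax, Fcgr3 and Mpo), and Adgre1, C1qa, C1qb and C1qc. Of 8 genes listed as Paneth cell markers 1 was higher and 2 lower. Their sums were 35390 and 48870 in stem and 10089 and 17371 in enterocyte arrays. The higher one was Guca2b, at 462 and 688 in stem and 9311 and 10959 in enterocyte arrays. Guca2b moved as the enterocyte markers did and made up most of the enterocyte sums, which therefore do not measure Paneth cells. Lyz1 read 27637 and 35697 in stem and 277 and 2204 in enterocyte arrays, and Mmp7 1328 and 2147 against 63.5 and 604. Of 7 tuft cell markers 6 were higher and 0 lower, and of 11 goblet cell markers 0 were higher and 10 lower. Of 12 enteroendocrine markers 0 were higher and 8 lower, and of 13 stromal, endothelial and red cell markers 0 and 1. Il25, among the higher tuft markers, lay below background on all 4 arrays. Summed goblet cell markers were 38401 and 45728 in stem and 1524 and 2079 in enterocyte arrays. Enteroendocrine sums were 9848 and 12273 against 986 and 887, and tuft sums 1041 and 619 against 5733.5 and 3801. The 3′ minus 5′ difference of the Actb control probe sets, a sign of RNA length, was 2.06 and 2.10 (log2) on the stem arrays and 0.56 and 0.50 on the enterocyte arrays. For Gapdh it was 1.70 and 1.92 against 0.15 and 0.17. Of all 64 control probe sets 10 were higher and 8 lower in enterocytes by at least 1 (log2). Their differences ran from -2.55 to 2.90, at a median of -0.071. The part of these differences in the results below was not tested.

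Of the 10 defence genes 6 were higher in enterocytes (Reg1, Reg3a, Reg3b, Reg3g, Il18 and Pigr), 1 was lower (Nlrp6) and 3 did not pass the test (Ccl25, Nos2 and Saa1). The test was limma's, fitted over all genes, with a threshold of 0.05 on the Benjamini-Hochberg adjusted p. Over all 12393 genes 18.2% were higher and 22.4% lower by the same rule, and the median difference was -0.00261 (log2) against 1.27 for the 10 genes. By at least 2 on the log2 scale 5 of the 10 rose, against 4.41% of all genes. The genes were listed with earlier results of these data known, so these shares describe the list and do not test it. The groups did not overlap in 9 of the 10, a share to be read against 65.3% of all genes. Leaving out either stem array ended all 7 calls (0 members and 0 genes by limma), although 5 members without stem replicate 1 and 4 without stem replicate 2 still had an unadjusted p under 0.05. With values below background raised to that level 3 members rose and 1 fell.

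**Figure D1:**
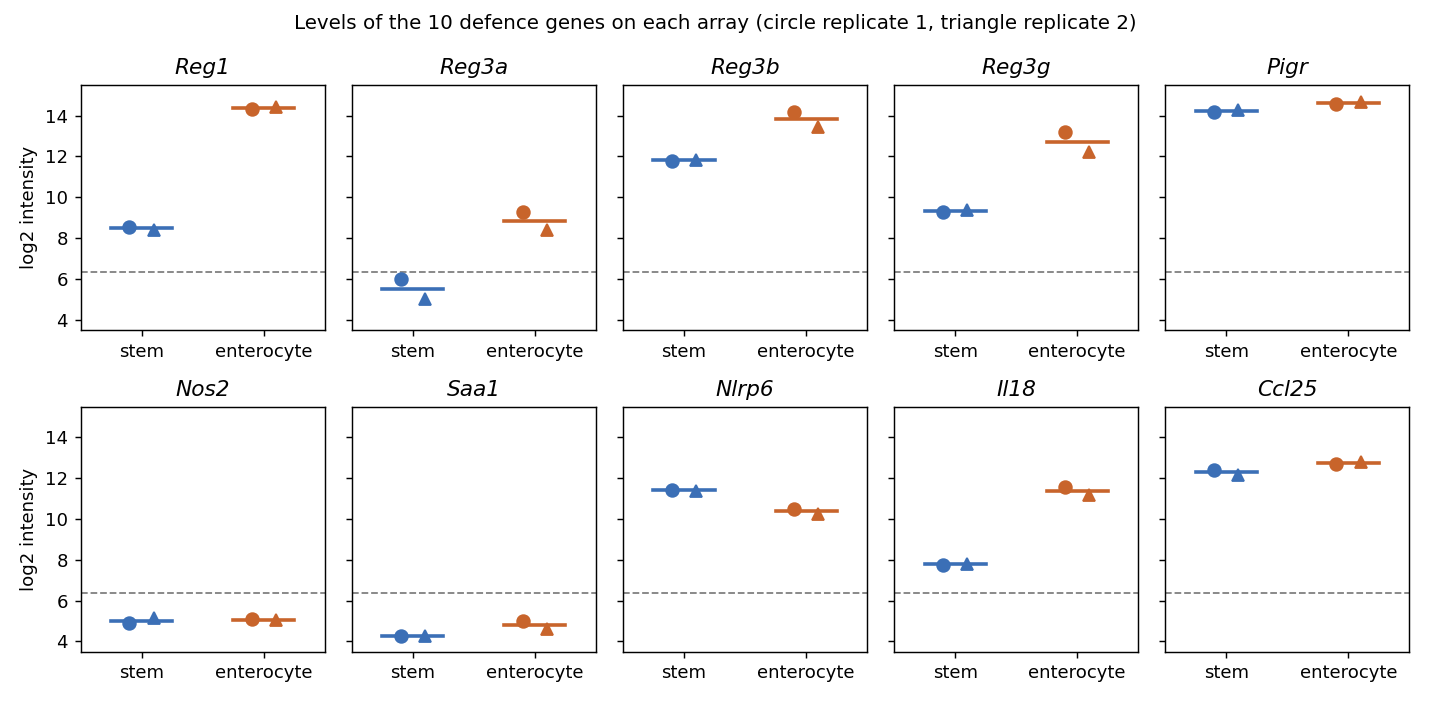
Level of each of the 10 genes (log2 intensity) on the 2 stem arrays (blue) and the 2 enterocyte arrays (orange). Circles are replicate 1, triangles replicate 2, horizontal bars group means, and the dashed line the background level. Reg1 rises from means of 8.47 to 14.38, Nlrp6 falls from 11.41 to 10.37, and Nos2 and Saa1 lie below the dashed line on all 4 arrays.

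Reg1 encodes a small secreted protein with a C-type lectin fold that is made in pancreas and gut. It showed the largest difference of the 10 genes. Its intensities were 371 and 340 on the stem arrays and 20793 and 21865 on the enterocyte arrays. Both replicates of each group lay close together, and the groups were far apart. The rise was 60.0-fold (5.91 ± 0.08 SE on the log2 scale, as for every difference below, with 2 arrays in each group and an adjusted p of 0.00225 by limma). Under 16 alternative settings the difference stayed between 5.52 and 5.97 and passed the threshold in 14, the exceptions being those without either stem array. The 3 genes whose 4 log2 values, centred on each gene's own mean, lay nearest to Reg1 were the mannose-binding lectin gene Mbl2 (distance 0.18), the retinol-binding protein gene Rbp2 (0.20) and the cytochrome P450 gene Cyp3a13 (0.23). All 3 were higher in enterocytes by 5.70 to 5.79 (log2).

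Reg3g encodes a lectin that binds peptidoglycan and kills Gram-positive bacteria, and in mice it holds bacteria away from the surface of the small intestine. Its intensities were 629 and 673 in stem and 9370 and 4781 in enterocyte arrays. The stem arrays were alike, the enterocyte arrays differed by 1.96-fold, and the groups did not overlap. Reg3g rose 10.3-fold (3.36 ± 0.39 SE, adjusted p = 0.0110 by limma). The difference was 2.88 without enterocyte replicate 1 and 3.85 without enterocyte replicate 2, and it passed the threshold in both cases.

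Reg3b encodes a related bactericidal lectin. On the probe set with the higher mean its intensities were 3519 and 3676 in stem and 18730 and 11214 in enterocyte arrays, a rise of 4.03-fold (2.01 ± 0.30 SE, adjusted p = 0.0181 by limma). The other Reg3b probe set read 787 and 646 in stem and 22570 and 10226 in enterocytes, a rise of 21.3-fold (4.41 ± 0.48 SE, adjusted p = 0.0152 in the fit on the probe set with the lowest mean of each gene). Both probe sets placed Reg3b higher in enterocytes and they gave different sizes for the rise. The name of the second probe set ends in _s_at, a class that can match several transcripts, so other Reg transcripts may add to it. The call on the first probe set was lost with dim values raised to background (adjusted p = 0.0636), where the difference was still 2.01.

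Reg3a is the mouse member named after the human lectin REG3A, whose product is bactericidal in human gut. It was dim in stem cells, with intensities of 64.3 and 32.0 that both lay below background, and read 619 and 336 in enterocyte arrays. Reg3a was therefore at least 5.56-fold higher in enterocytes (measured log2 means 5.50 and 8.83, difference 3.33 ± 0.53 SE, adjusted p = 0.0212 by limma). It was the least certain of the Reg calls. The adjusted p was 0.151 without enterocyte replicate 1, 0.115 without enterocyte replicate 2 and 0.0605 with dim values raised to background.

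**Figure D2:**
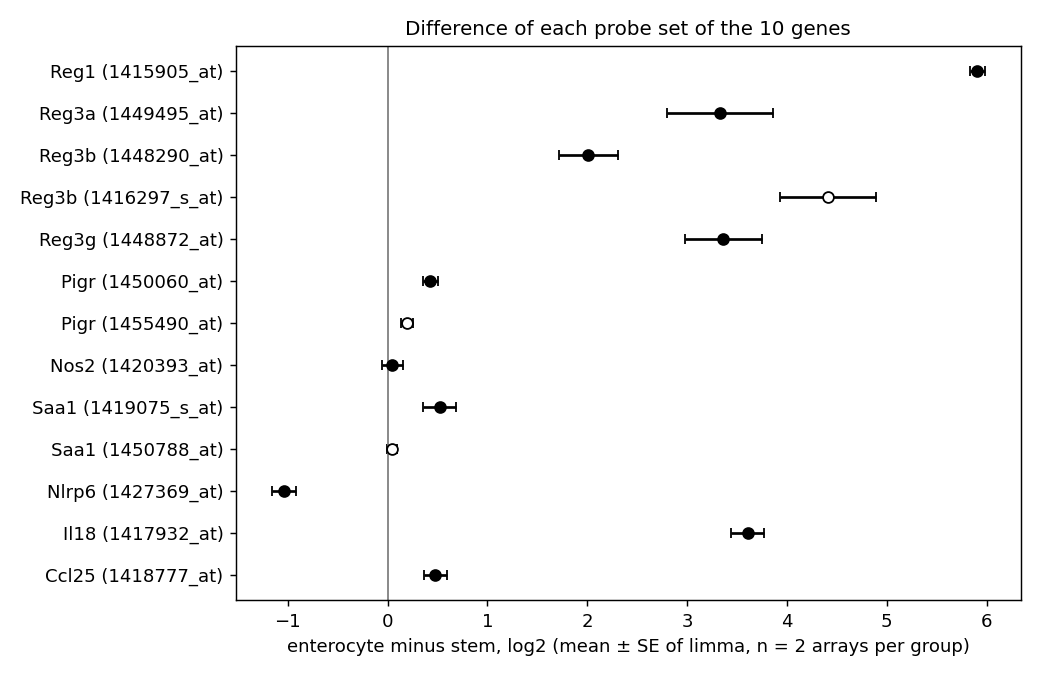
Enterocyte minus stem difference (log2) of all 13 probe sets of the 10 genes, with limma's standard error (n = 2 arrays per group). Filled points are the probe sets used, open points the other probe set of the same gene. Both Reg3b probe sets are to the right of 0, at 2.01 and 4.41, and the Nlrp6 probe set alone lies to the left, at -1.04.

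The 3 Reg3 genes also shared a difference between the 2 enterocyte arrays that Reg1 did not show. Replicate 1 was above replicate 2 by 1.85-fold for Reg3a, 1.67-fold for Reg3b (2.21-fold on its other probe set) and 1.96-fold for Reg3g. Reg1 differed by -0.073 (log2). Of 7321 genes with an enterocyte mean above background, 2.36% were at least 1.5-fold higher in replicate 1, and the median absolute difference between the enterocyte arrays was 0.17 (log2). A higher value than that of Reg3g was found in 0.396% of these genes, than that of Reg3a in 0.505% and than that of Reg3b in 1.01%. Il18 was 1.31-fold and Nlrp6 1.21-fold higher in replicate 1, while Pigr and Ccl25 were slightly lower there, at -0.10 each.

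**Figure D3:**
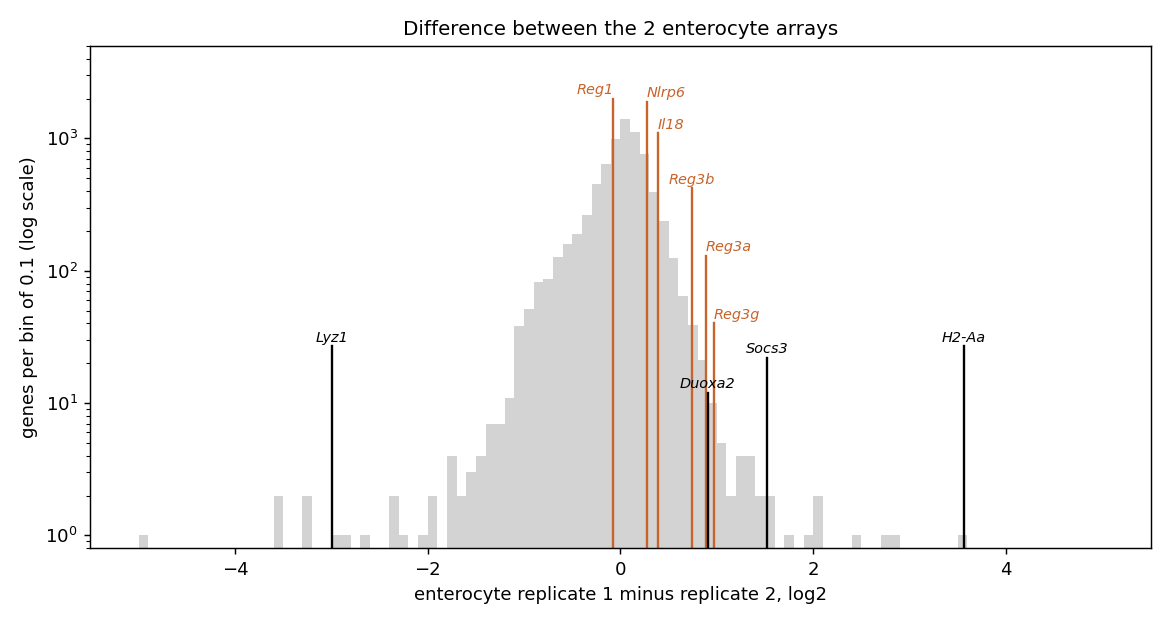
Histogram of enterocyte replicate 1 minus replicate 2 (log2) over 7321 genes with an enterocyte mean above background, with the number of genes on a log axis. Orange lines mark 6 of the defence genes and black lines 4 other genes, and line heights carry no value. Reg3b, Reg3a and Reg3g lie at 0.74, 0.88 and 0.97, and Reg1 lies at -0.07.

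Some genes outside the 10 moved with the Reg3 genes between the enterocyte arrays. Duoxa2, which matures the hydrogen peroxide producing oxidase Duox2, was 1.87-fold higher in replicate 1. Socs3, a feedback inhibitor that STAT3 induces, was 2.87-fold higher, and the immunoglobulin gene Igha 2.71-fold. The MHC class II gene H2-Aa was 11.8-fold higher in replicate 1. In the other direction the Paneth cell gene Lyz1 differed by -2.99 (log2) and the interferon-induced gene Ifit1 by -2.66. Socs3, H2-Aa, Lyz1 and Ifit1 were chosen after their values were seen. With 2 arrays this is a description of those arrays, without a test, and whether these genes and the Reg3 genes share a cause was not tested.

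Il18, the cytokine released by inflammasomes, rose strongly. Its intensities were 214 and 223 in stem and 3043 and 2329 in enterocyte arrays. The groups were far apart compared with the spread within either. Il18 rose 12.2-fold (3.61 ± 0.16 SE, adjusted p = 0.00323 by limma), with values of 3.22 to 3.80 under the 16 alternatives.

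Nlrp6, the sensor of that inflammasome, went the other way. It read 2783 and 2643 in stem and 1453 and 1201 in enterocyte arrays, with no overlap. Nlrp6 fell 2.05-fold (-1.04 ± 0.12 SE, adjusted p = 0.0116 by limma). The call was lost without enterocyte replicate 2 (-0.90, adjusted p = 0.0553), and the difference lay between -1.43 and -0.90 under all 16 alternatives. Nearest to Nlrp6 over the 4 arrays were the kinase gene Mark2, the helicase gene Helb and Washc1, at distances of 0.03 to 0.04.

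Of 18 further genes of inflammasomes and the interleukin 18 axis 4 were higher, 3 lower and 11 did not pass (median 0.11). Of the 18, 8 lay below background on all arrays, among them Aim2, which was called lower. The adaptor gene Pycard read 9661 and 9370 in stem and 8578 and 7475 in enterocytes (adjusted p = 0.14 by limma), and Casp1 read 1924 and 1841 against 1697 and 1953 (adjusted p = 0.731). Both were measured well above background in each group, with differences of -0.25 and -0.048 (log2). Casp4, the mouse caspase that senses bacterial lipopolysaccharide in the cytosol, fell 4.69-fold (-2.23 ± 0.07 SE, adjusted p = 0.00261). Naip2, a sensor of bacterial secretion systems, rose 2.15-fold, Il18bp, the soluble inhibitor of interleukin 18, 1.75-fold, and Casp8, a caspase of cell death, 1.63-fold. Those 3 calls were lost when any single array was left out, with adjusted p of 0.0633 and 0.0772 for Naip2 without the first or second enterocyte array. Casp4 lost its call without either stem array.

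Pigr encodes the polymeric immunoglobulin receptor, which takes up IgA at the base of the cell and releases it into the lumen. Its intensities were 18318 and 19537 in stem and 24564 and 26345 in enterocyte arrays, well above background in both groups. The rise was small, 1.34-fold (0.43 ± 0.07 SE, adjusted p = 0.0255 by limma). The other Pigr probe set gave 1.15-fold (0.20 ± 0.06 SE, adjusted p = 0.104), and centring the arrays on 8 reference genes gave 0.037 (adjusted p = 0.833). The adjusted p was 0.0922 and 0.113 when 1 of the enterocyte arrays was left out, and the call held in 8 of 16 alternatives. That centring moves the difference of every gene by -0.39, and 3 of the 8 reference genes were themselves higher past the threshold.

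Among 11 other genes of IgA and IgG transport and secretion 8 were higher, 0 lower and 3 did not pass, at a median difference of 1.93. Fcgrt, the neonatal Fc receptor for IgG, rose 4.84-fold (2.27 ± 0.07 SE, adjusted p = 0.00261). Tnfsf13b, the B cell survival factor BAFF, rose 4.88-fold (2.29 ± 0.12 SE). Igha, the heavy chain of IgA, was at least 5.51-fold higher (adjusted p = 0.046 by limma), with 745 and 275 on the enterocyte arrays against 76.8 and 80.6. With the replicate block its adjusted p was 0.0574, and 8 of 16 alternatives ended the call. Its difference was 1.80 without enterocyte replicate 1 and 3.24 without replicate 2. Tnfsf13b had an adjusted p of 0.0508 without either enterocyte array. Igha is made by plasma cells, and of 8 markers of B and plasma cells it alone passed as higher. Jchain, which joins IgA into dimers, read 27.1 and 18.6 in stem and 152.7 and 54.5 in enterocytes, with replicate 1 above replicate 2 as for Igha (difference 2.02, adjusted p = 0.0909). Sdc1, which epithelial cells also express, was lower, and Ighm was above background in both groups without passing (adjusted p = 0.317). Cd79a, Cd79b, Ms4a1 and Tnfrsf17 were below background on all 4 arrays.

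Ccl25, the chemokine that draws CCR9-bearing lymphocytes to the small intestine, lay well above background in both groups. It read 5423 and 4564 in stem and 6687 and 7181 in enterocyte arrays. The groups did not overlap, but the difference of 0.48 ± 0.12 SE (log2) did not pass the test (adjusted p = 0.0551 by limma). Under the alternatives it lay between 0.088 and 0.60 and passed in 3 of 16.

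Nos2 and Saa1 were not above background in either group, so no fold is given. Nos2, the inducible nitric oxide synthase, read 29.7 and 34.9 in stem and 33.8 and 32.8 in enterocytes, with overlapping groups (adjusted p = 0.754 by limma). Saa1, an acute phase protein that carries retinol, read 19.5 and 19.2 in stem and 31.8 and 24.2 in enterocytes (adjusted p = 0.0941, and 0.048 without enterocyte replicate 2). The accession listed for that Saa1 probe set belongs to Saa2 in the RefSeq table. The other Saa1 probe set read 20.6 and 19.8 against 21.1 and 20.6 (adjusted p = 0.53). Saa2 and Saa3 were likewise below background on all arrays. In bulk RNA, fewer cells of a type and less RNA per cell cannot be told apart.

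Of 20 further genes of oxidases, nitric oxide and arginine use 5 were higher, 3 lower and 12 did not pass (median 0.056). Arg1, called lower, lay below background on every array. Duoxa2 was at least 10.1-fold higher, from 32.0 and 47.9 to 1131 and 603 (adjusted p = 0.00817 by limma). Gch1, which starts synthesis of the cofactor of nitric oxide synthases, rose 12.8-fold (3.68 ± 0.24 SE), and Arg2, the mitochondrial arginase, 20.1-fold (4.33 ± 0.21 SE). Noxo1, the organiser of the epithelial oxidase Nox1, fell 3.97-fold (-1.99 ± 0.09 SE). All 4 lost their calls when any single array was left out. Without enterocyte replicate 1 and then 2, the adjusted p was 0.0704 and 0.0623 for Duoxa2, 0.0521 and 0.0508 for Gch1, 0.0598 and 0.0618 for Arg2, and 0.0528 and 0.0542 for Noxo1. The dimmest Gch1 probe set gave 1.90 (adjusted p = 0.059), and the mean over its probe sets 2.79.

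**Figure D4:**
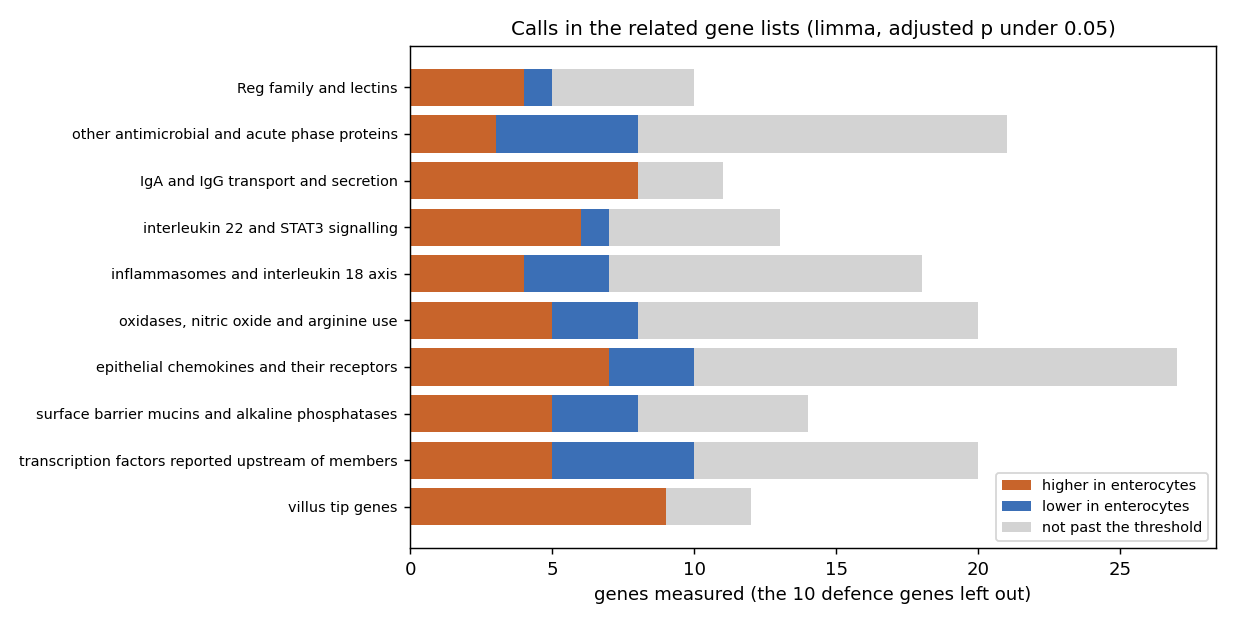
Number of genes higher in enterocytes (orange), lower (blue) or not past the threshold (grey) in 10 related gene lists, by limma at an adjusted p under 0.05, with the 10 defence genes left out. The bars of IgA and IgG transport (8 of 11) and of villus tip genes (9 of 12) hold only orange and grey.

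Of 13 genes of interleukin 22 and STAT3 signalling 6 were higher, 1 lower and 6 did not pass (median 0.20). Fut2 and Socs1, called higher, lay below background on all 4 arrays. Il10rb, a receptor chain shared by interleukins 10 and 22, rose 6.55-fold (2.71 ± 0.17 SE). Stat3 itself rose 3.73-fold (1.90 ± 0.13 SE, adjusted p = 0.00496), though its dimmest probe set gave 0.26 (adjusted p = 0.591), and the kinase gene Jak1 2.10-fold. For Jak1 the mean over probe sets gave 0.63 (adjusted p = 0.062), the dimmest probe set 0.28, and 5 of 16 alternatives ended the call. Without enterocyte replicate 1 and then 2, the adjusted p was 0.0616 and 0.0593 for Il10rb and 0.0708 and 0.0678 for Stat3. Socs3 read 745 on both stem arrays and 1235 and 430 on the enterocyte arrays, so its enterocyte values lay on either side of the stem level. Il6st, the shared receptor chain gp130, fell by 0.49 (log2), but its direction turned when its probe sets were summarised by their median (0.20) or read from the dimmest (0.0033).

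Among 10 other Reg genes and lectins 4 were higher, 1 lower and 5 did not pass (median 0.46). The lectin-like surface protein gene Clec2h rose 105-fold (6.71 ± 0.07 SE) and Lgals3, which encodes galectin 3, 49.0-fold (5.62 ± 0.16 SE). The goblet cell lectin gene Zg16 was at least 53.9-fold lower. The dimmest Zg16 probe set gave -3.34, and the mean over the Clec2h probe sets 5.74. The remaining neighbours of the Reg locus were dim: Reg2 was below background on all arrays despite an adjusted p of 0.0137, and Reg3d read 48.1 and 61.8 in stem and 87.5 and 75.7 in enterocytes (adjusted p = 0.0842). Reg4, a family member of secretory cells, read 920 and 1446 in stem and 72.4 and 271 in enterocytes, without passing (adjusted p = 0.0631).

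Of 21 other antimicrobial and acute phase genes 3 were higher, 5 lower and 13 did not pass (median 0.065), and 15 lay below background throughout. Among those 15 were Saa4, called higher, and Lcn2, called lower. Lypd8, a surface protein that binds bacterial flagella in mouse colon, rose 1.82-fold (0.87 ± 0.09 SE). Pglyrp1, a peptidoglycan recognition protein, fell 3.64-fold (-1.86 ± 0.10 SE). The lysozyme gene Lyz2 fell 25.5-fold (-4.67 ± 0.80 SE, adjusted p = 0.0251), and Pla2g2a was at least 1.91-fold lower. Lyz2 read 34.9 and 130.4 on the enterocyte arrays, and its difference was -3.72 without enterocyte replicate 1 (adjusted p = 0.0862) and -5.62 without replicate 2 (adjusted p = 0.0639). Lypd8, Pglyrp1 and Pla2g2a also lost their calls without either enterocyte array (0.0931 and 0.0918, 0.0542 and 0.0577, 0.206 and 0.214). The summed genes listed as Paneth cell markers were lower in enterocytes too, although Guca2b among them rose and made up most of the enterocyte sums.

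Of 27 other chemokines, epithelial cytokines and receptors 7 were higher, 3 lower and 17 did not pass (median 0.12). Cxcr6 and Il25, called higher, lay below background on all 4 arrays. Il33, a cytokine released on cell damage, was at least 12.4-fold higher. Ccl5, a chemokine that lymphocytes themselves make, rose 15.0-fold (3.91 ± 0.40 SE), and Cx3cl1, the membrane-bound chemokine fractalkine, 8.79-fold. The Cx3cl1 rise depended on the probe set, at 1.44 for the mean over probe sets, 0.67 for the median and 0.51 for the dimmest, against 3.14 on the brightest. Ccl6 was at least 15.7-fold lower, with -3.86 on its dimmer probe set. Without enterocyte replicate 1 and then 2, the adjusted p was 0.0927 and 0.104 for Ccl5, 0.0547 and 0.0535 for Cx3cl1, and 0.0668 and 0.0687 for Ccl6. Ccr9, the receptor of Ccl25, was read at 34.5 and 31.1 in stem and 30.2 and 66.7 in enterocytes, below background on all 4 arrays. Lymphocyte markers were higher in enterocytes, as given above.

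Of 14 surface mucins and alkaline phosphatases 5 were higher, 3 lower and 6 did not pass (median 0.19). Muc1, called lower, lay below background on every array. The membrane mucin gene Muc3 rose 15.4-fold (3.95 ± 0.23 SE), and Akp3, an alkaline phosphatase of the intestine, was at least 6.88-fold higher. The mucus protein gene Fcgbp fell 30.3-fold (-4.92 ± 0.09 SE). Muc3 had an adjusted p of 0.0685 and 0.0679 without the first or second enterocyte array, and Akp3 one of 0.0505 with dim values raised to background.

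Of 20 transcription factors and signalling genes reported upstream of the members 5 were higher, 5 lower and 10 did not pass (median 0.11). Spib rose 6.98-fold (2.80 ± 0.34 SE). Pparg, which encodes a nuclear receptor, rose 3.63-fold (1.86 ± 0.12 SE), while Foxa3 fell 7.91-fold (-2.98 ± 0.15 SE). Without enterocyte replicate 1 and then 2, the adjusted p was 0.117 and 0.0995 for Spib and 0.0525 and 0.0572 for Pparg, and Foxa3 had 0.0508 without replicate 2. Hnf4a, a master regulator of enterocytes, read 8543 and 7636 in stem and 9661 and 9034 in enterocytes (adjusted p = 0.175).

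Of 12 villus tip genes 9 were higher, 0 lower and 3 did not pass, at a median difference of 3.16. Pmp22 was at least 34.5-fold higher, and the ectoenzyme gene Enpp3 rose 98.7-fold (6.63 ± 0.10 SE). The dimmest of the 5 Enpp3 probe sets gave 0.12 (adjusted p = 0.648), and the mean over them 4.92. Ada, adenosine deaminase, rose 95.8-fold (6.58 ± 0.11 SE). Ada differed between the enterocyte arrays by 0.23 (log2), against 0.74 to 0.97 for the Reg3 genes. Over the 163 genes of the related lists, each counted once, 53 were higher and 24 lower, 47.2% in all against 40.6% of all genes. Without enterocyte replicate 1 there were 19 higher and 9 lower, without enterocyte replicate 2 there were 17 and 6, and without either stem array 0. Under reference gene centring the split was 46 higher and 58 lower, and over all genes it went from 2257 higher and 2779 lower to 1731 and 6536.

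**Figure D5:**
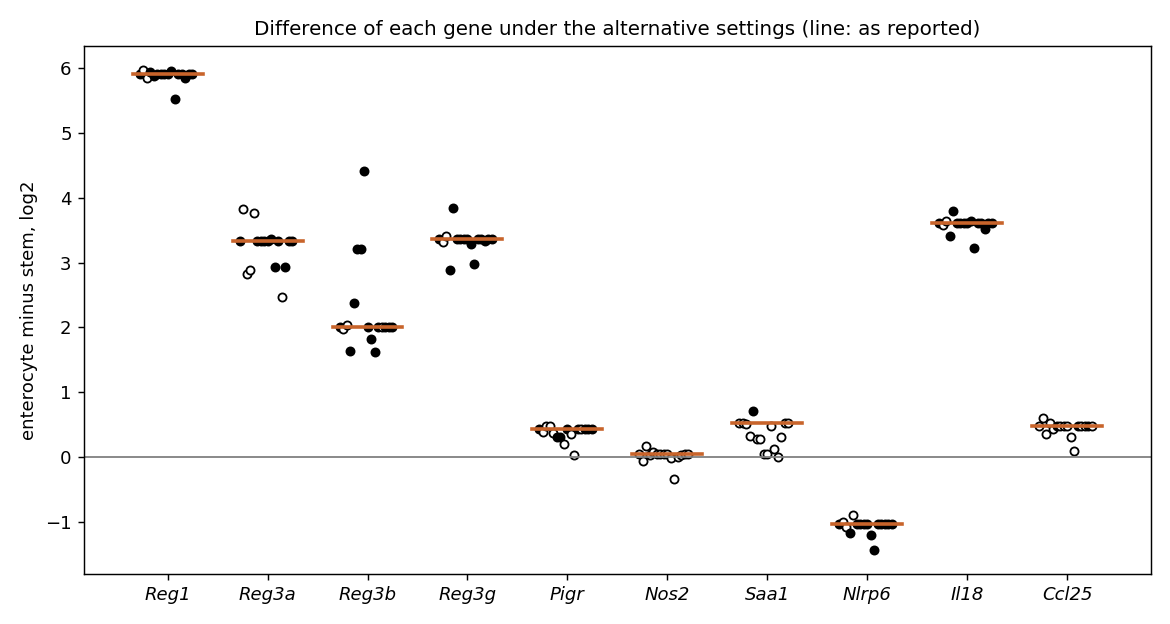
Enterocyte minus stem difference (log2) of each of the 10 genes under up to 16 alternative settings (points, filled where the adjusted p by limma was under 0.05), beside the reported value (orange line). Reg1, Reg3a, Reg3b, Reg3g and Il18 stay above 1.6, Nlrp6 stays between -1.43 and -0.90, and Nos2 falls on both sides of 0.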

How the data were processed

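The authors deposited 1 intensity value for every probe set of 4 arrays (7.93 to 41703.8, array medians 102.4 to 110.6), linear and already normalized. RMA is the tool named per the submitters' processing notes, without a version, and the sources used here do not say how arrays were scaled to each other. The rule for the genes speaks of log2 values, so the deposited intensities were put on that scale without a pseudocount. Control probe sets (64) and probe sets with several symbols (691) or not listed (1606) were left out, and 0 columns were without a sample. Of 20380 probe sets with 1 symbol, 20351 matched the RefSeq gene table (GRCm38.p6) by Entrez identifier. The brightest probe set on average stood for its gene, which mattered for 4956 of 12393 genes.

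The test was limma 3.58.1 under R 4.3.3 (lmFit, then eBayes), two-sided, with p-values adjusted by Benjamini-Hochberg across the whole table and 2 residual plus 1.23 prior degrees of freedom. The number of arrays limits the precision. In 209 genes both replicates held identical values in each group. The fit was tested on simulated data for this comparison (12393 genes). It found 2% of the genes given a change of 0.5 (log2) and 42% of those given 1. It also found 78% of those given 2, 98% of those given 4, and 4 unchanged genes. The simulation changed a much smaller share of genes than the 40.6% called in the data. Its adjusted threshold was therefore stricter, and these rates do not carry over to the data. A fold is written as "at least" where the dimmer group lay below background on both arrays, with each of its arrays raised to that level.

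The members, related lists and tests were chosen with earlier results of these data known. All 10 members are named, with Lgr5 as a check of the labels and Atoh1, which cannot check the deletion, beside it. In each related list the called genes of largest difference are named, up to 3 in the direction of most calls and 1 in the other, and for the largest rise and fall among the members the 3 nearest genes. Other genes in the text were chosen after their values were seen. Alternatives covered the replicate block, leaving out each array, the choice of probe sets, scaling, dim values, an offset of 16 before the log, the variance model and array weights.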

Additional observations from a re-analysis of the deposited data

How the results depend on the processing

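Under 16 alternatives Reg1, Reg3g and Il18 kept their direction throughout and their call in 14, Reg3b and Nlrp6 in 13, Reg3a in 11 and Pigr in 8. Leaving out single arrays gave 0 to 5 members higher and 0 to 1 lower, 0 to 19 related genes higher and 0 to 9 lower, and 0 to 663 of all genes higher and 0 to 1058 lower. The 0 counts are those without a stem array, by limma, with 4675 and 4817 genes at an unadjusted p under 0.05. With a single stem array the spread rests on the enterocyte arrays alone. Raising dim values to background left 3 members higher and 1 lower, 40 related genes higher and 15 lower, and 1488 genes higher and 1845 lower. Reference gene centring gave 1731 genes and 46 related genes higher, and 6536 genes and 58 related genes lower. Nos2, 0.16 without stem replicate 2, turned to -0.068 without stem replicate 1, -0.014 with quantile normalization and -0.34 with reference gene centring, never past the threshold, and Il6st turned to 0.20 with the median over probe sets and 0.0033 with the dimmest. The cause was not tested. Of 574 values of 36 named related genes under alternatives, 439 kept direction and side, 133 lost the call (72 of them without a stem array) and 2 turned.

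The replicate numbers are shared by the groups, but same-numbered arrays hardly deviated together (correlation of deviations 0.05, with 2 pairs), so they are taken as names only. With the number as a replicate block 6 members were higher and 1 lower, and 2010 and 2557 genes. Dim genes, with values below the background level, limit what can be said of Nos2, Saa1 and the stem level of Reg3a.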

Other observations

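Genes that differed most between the 2 enterocyte arrays, chosen after their values were seen, give the setting of the Reg3 difference. The genes furthest above in replicate 1, among 7321 with an enterocyte mean above background, were H2-Aa (3.56, log2), H2-Ab1 (2.81), Cd74 (2.71) and H2-Eb1 (2.49), all of MHC class II antigen presentation. Furthest below were Fabp6, the bile acid binding protein of the ileum, at -4.90, and the pancreatic colipase gene Clps at -3.58. They were followed by Itln1 at -3.51 and Mmp7 at -3.25, made by secretory cells of the crypt. Cblif, the intrinsic factor gene, was at -3.20. In the stem arrays Reg3g and Reg3b differed by only -0.10 and -0.06 between replicates, while Reg3a, below background there, differed by 1.01.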
